A study of Mus musculus with 4 samples.

Results

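The 5 genes Xcl1, Ccl5, Flt3l, Xcr1 and Flt3 were taken by their symbols from the 27998 genes listed for each library, and each was followed through every cell class of the 4 libraries. Each library was 10x single-cell RNA-seq of nasal mucosa leukocytes (CD45+) from C57BL/6 mice aged 8 weeks, given OVA (ovalbumin, the allergen) or not, and Ribavirin (an inhibitor of GTP synthesis used as an antiviral drug) or its vehicle. By the study's methods OVA mice were sensitised with OVA and alum and then challenged through the nose. The groups were Vehicle, Vehicle-OVA, Ribavirin and Ribavirin-OVA, each with 1 library, and how many mice a library held is not given in the sources used here. No difference between groups therefore has a replicate check, no test was run, and each interval below is an exact 95% interval that covers counting error only.

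XCL1 is a chemokine made by activated NK cells and CD8 T cells, and its receptor XCR1 marks the type 1 conventional dendritic cell (cDC1), the subset best known for cross-presentation. NK cells are also known to make CCL5, which draws cells through receptors that include CCR1 and CCR3, and FLT3L, the growth factor that dendritic cells and their precursors read through the receptor tyrosine kinase FLT3. Together these genes describe a known route by which NK cells can gather and sustain cDC1, best described in tumours.

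All 5 genes lie on the minus strand of the mouse build GRCm38 (GENCODE vM21) and code for protein. Xcl1 (ENSMUSG00000026573) spans chr1:164931644-164935527, Ccl5 (ENSMUSG00000035042) spans chr11:83525778-83530518 and Flt3l (ENSMUSG00000089989) spans chr7:45125922-45136231. The receptor genes are Xcr1 (ENSMUSG00000060509) at chr9:123852315-123862029 and Flt3 (ENSMUSG00000042817) at chr5:147330741-147400489. RefSeq (GRCm38.p6) gave the 250 bases before the start of 4 of them, and the ligand-receptor pair is shown here with Flt3l, 5′ to 3′ on the gene's strand, with capitals for motif matches: Xcl1 at chr1:164935523-164935772, Xcr1 at chr9:123862030-123862279 and Flt3l at chr7:45136433-45136682.
Xcl1: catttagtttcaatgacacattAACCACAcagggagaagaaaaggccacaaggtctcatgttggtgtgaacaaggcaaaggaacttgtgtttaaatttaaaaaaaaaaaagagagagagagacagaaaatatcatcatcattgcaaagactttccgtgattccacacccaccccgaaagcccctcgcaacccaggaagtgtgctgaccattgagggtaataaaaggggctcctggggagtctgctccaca
Xcr1: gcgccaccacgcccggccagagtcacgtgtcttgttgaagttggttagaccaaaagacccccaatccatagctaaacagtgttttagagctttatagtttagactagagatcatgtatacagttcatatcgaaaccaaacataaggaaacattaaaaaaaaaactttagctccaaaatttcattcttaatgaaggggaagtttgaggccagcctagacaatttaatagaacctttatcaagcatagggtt
Flt3l: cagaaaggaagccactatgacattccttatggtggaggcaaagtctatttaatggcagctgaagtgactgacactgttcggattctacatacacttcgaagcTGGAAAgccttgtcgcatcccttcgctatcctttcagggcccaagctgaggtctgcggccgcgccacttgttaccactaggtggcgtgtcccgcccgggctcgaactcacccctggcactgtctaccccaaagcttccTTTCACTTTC
The letters of 6 motifs bound by lymphoid and myeloid factors were searched on both strands: T-box AGGTGTGA (in 1.12% of 32851 promoter windows of this length), RUNX TGTGGTT (4.4%), ISRE-like (GAAA repeated after a gap of 2 bases, 2.98%), AP-1 TGANTCA (6.75%), ETS/PU.1 GAGGAAGT (2.44%) and NFAT TGGAAA (18.6%). Xcl1 held the RUNX letters on the opposite strand, 228 to 222 bases before the start. Flt3l held the ISRE-like letters on the opposite strand directly before the start (bases 10 to 1) and the NFAT letters 148 to 143 bases before it, and no match overlapped another. Positions count from the RefSeq start, which for Flt3l lies upstream of the GENCODE span given above. Neither Xcr1 nor Flt3 held any of these letters in this window, and Ccl5 is named only.

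The libraries held 91742940 to 171873110 UMIs (unique molecular identifiers, 1 per captured transcript), and after filtering 8750 to 24063 cells each, 69219 in all, with a median of 3396 to 5098 UMIs a cell. A level below is CPM, the UMIs of a gene scaled to the total UMIs of its class in that library. Runs of 4 values keep the order Vehicle, Vehicle-OVA, Ribavirin, Ribavirin-OVA, and paired ratios give the Vehicle pair first. Ptprc, which encodes CD45, had a UMI in 86.0 to 90.7% of cells, while the epithelial marker Epcam had one in 3.46 to 12.4% and the olfactory neuron marker Omp in 0.860 to 4.89%. Libraries shared 636 cell barcodes, and leaving those cells out moved no ratio outside its counting interval. Cells were clustered without the 5 genes and named from other markers: 18 classes were named and 16 clusters (10341 cells) were left unnamed. Neutrophil-like cells made up 65.6% of Vehicle-OVA and 29.8 to 33.7% of the other 3 libraries, so values over all cells carry that shift in composition.

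NK-like cells numbered 487 in Vehicle, 63 in Vehicle-OVA, 487 in Ribavirin and 124 in Ribavirin-OVA, which is 2.02, 0.371, 2.51 and 1.42% of kept cells. The summed level of their 8 NK markers ran from 10714 to 13169 CPM with no marker at 0, and that of the 9 cDC1 markers from 9.33 to 35.2 CPM with Snx22 at 0 in all 4 libraries. cDC1-like cells numbered 151, 52, 189 and 63 in the same order, with cDC1 markers at 3669 to 6259 CPM and NK markers at 2.00 to 9.14 CPM; Klrb1c, Klra8, Klra4, Eomes and Prf1 were at 0 there in all 4 libraries. The name of the axis held only in part, since NK-like cells contained 18.6, 5.78, 26.2 and 42.3% of the Xcl1 UMIs of Vehicle, Vehicle-OVA, Ribavirin and Ribavirin-OVA.

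**Figure D1:**
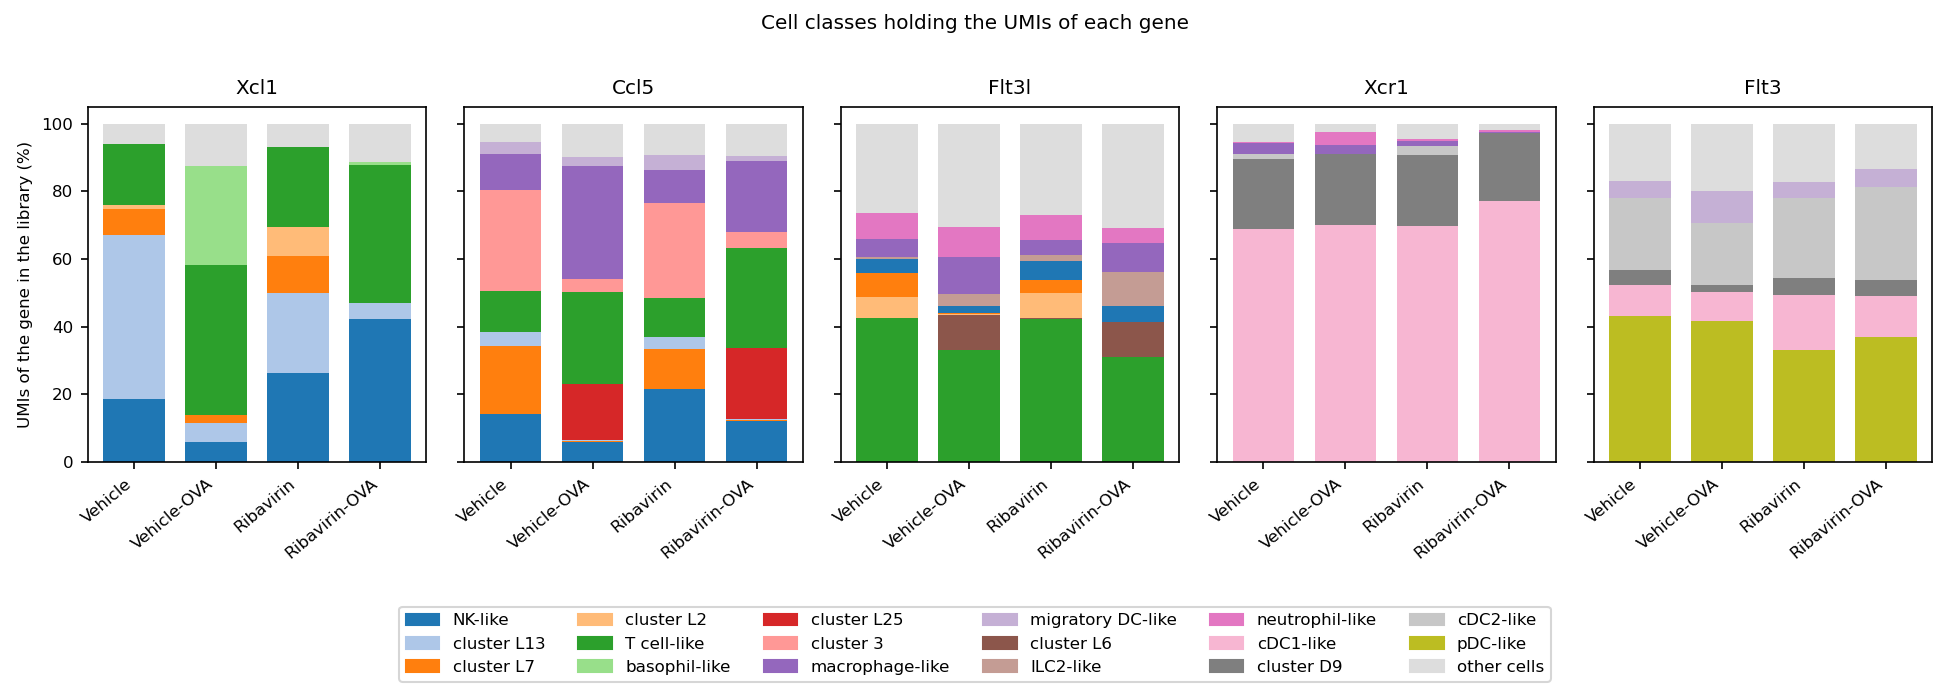
Share of each gene's UMIs (percent, stacked bars) found in each cell class, with 1 panel per gene and 1 bar per library. Xcr1 sits in cDC1-like cells and cluster D9, Flt3 spreads over the dendritic cell classes, and cluster L13 holds 48.5% of the Xcl1 UMIs in Vehicle and 5.78% in Vehicle-OVA.

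To ask which cells carried the ligand, Xcl1 was first read within each library. Over all kept cells its level was 27.3 CPM in Vehicle (4041 UMIs), 3.02 in Vehicle-OVA (277 UMIs), 24.7 in Ribavirin (3790 UMIs) and 5.01 in Ribavirin-OVA (421 UMIs). In NK-like cells it was 407 CPM (interval 378 to 437), 37.3 (21.3 to 60.6), 465 (437 to 495) and 209 (179 to 242). Both libraries without OVA lay above both with OVA, and the Vehicle-OVA value rested on 16 UMIs in 8 cells. A Xcl1 UMI was found in 33.9, 12.7, 41.1 and 23.4% of NK-like cells; with each cell thinned to 1000 UMIs the shares were 18.6, 3.23, 23.2 and 12.1%. Neutrophil-like cells, which should lack the gene, had a Xcl1 UMI in 0.334, 0.0359, 0.595 and 0.0766% of cells (0.144, 0, 0.183 and 0% thinned), at median depths of 2286 to 2913 UMIs against 3434 to 5432.5 in NK-like cells.

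Unnamed cluster L13 had the highest Xcl1 level of any unit with at least 50 cells in a library. Its leading genes were Xcl1, Cd7 and Klra1, and it held 294, 17, 201 and 17 cells in the order Vehicle, Vehicle-OVA, Ribavirin, Ribavirin-OVA. Xcl1 there was 1508 CPM (1442 to 1576), 206 (118 to 335), 937 (877 to 1000) and 217 (133 to 335). Those cells held 48.5% of all Xcl1 UMIs in Vehicle and 23.8% in Ribavirin, but 5.78 and 4.75% in the OVA libraries. The NK receptor gene Ncr1 was at 211, 193, 206 and 184 CPM in L13, while the T cell receptor component Cd3e was at 224, 0, 179 and 10.8 CPM and Cd3g at 637, 0, 502 and 54.2. Il7r, the IL-7 receptor chain of innate and memory lymphocytes, stood at 880, 631, 1120 and 477 CPM and Eomes, a T-box factor of NK cells, at 27.7, 129, 20.8 and 86.8. Its cells thus carried genes of more than one lymphocyte type, differently so with and without OVA, and no name was given.

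T cell-like cells were the other large holder of Xcl1. Their level was 29.3 CPM in Vehicle, 25.5 in Vehicle-OVA, 46.9 in Ribavirin and 27.9 in Ribavirin-OVA, from a UMI in 2.07, 2.78, 2.81 and 3.68% of cells (0.784, 1.12, 1.15 and 1.33% thinned). Few cells carried the total: 1 cell held 263 of 734 UMIs in Vehicle, 54 of 123 in Vehicle-OVA, 283 of 893 in Ribavirin and 42 of 172 in Ribavirin-OVA. NK-like cells exceeded T cell-like cells 13.9-fold (12.6 to 15.4) in Vehicle, 9.93-fold (9.06 to 10.9) in Ribavirin and 7.47-fold (6.03 to 9.27) in Ribavirin-OVA. In Vehicle-OVA the ratio was 1.46 (0.810 to 2.47), an interval that held 1. Without the cell holding the most UMIs in each class and library the ratio was 20.4 in Vehicle and 13.6 in Ribavirin, and with unnamed clusters placed in their best-scoring class it was 4.28 and 4.46. A mitochondrial limit of 20% gave 40.1 in Vehicle and 62.5 in Ribavirin-OVA.

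Among clusters scored as T cells, named or not, those with a Cd8a or Cd8b1 UMI and no Cd4 UMI stood at 140 CPM of Xcl1 in Vehicle, 21.0 in Vehicle-OVA, 145 in Ribavirin and 57.4 in Ribavirin-OVA. Cells with a Cd4 UMI alone stood at 26.4, 20.3, 64.4 and 2.10 CPM. Cells of these clusters with an Ncr1 UMI, numbering 122, 14, 99 and 17, stood at 2402, 281, 1291 and 105 CPM. Cd8 cells exceeded Cd4 cells in 3 of the 4 libraries beyond counting error, while in Vehicle-OVA the intervals overlapped (15.2 to 28.2 against 15.9 to 25.4). Single cells again weighed heavily. In Foxp3-led cluster L2 of Ribavirin 1 cell held 314 of 320 UMIs, and the level was 124 CPM with it and 2.33 without. In cluster L7 of Ribavirin, led by Nkg7, Ccl5 and Cd8a, 1 cell held 298 of 418 UMIs. In basophil-like cells of Vehicle-OVA 1 of 24 cells held all 81 UMIs, the largest single-cell count of that library.

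**Figure D2:**
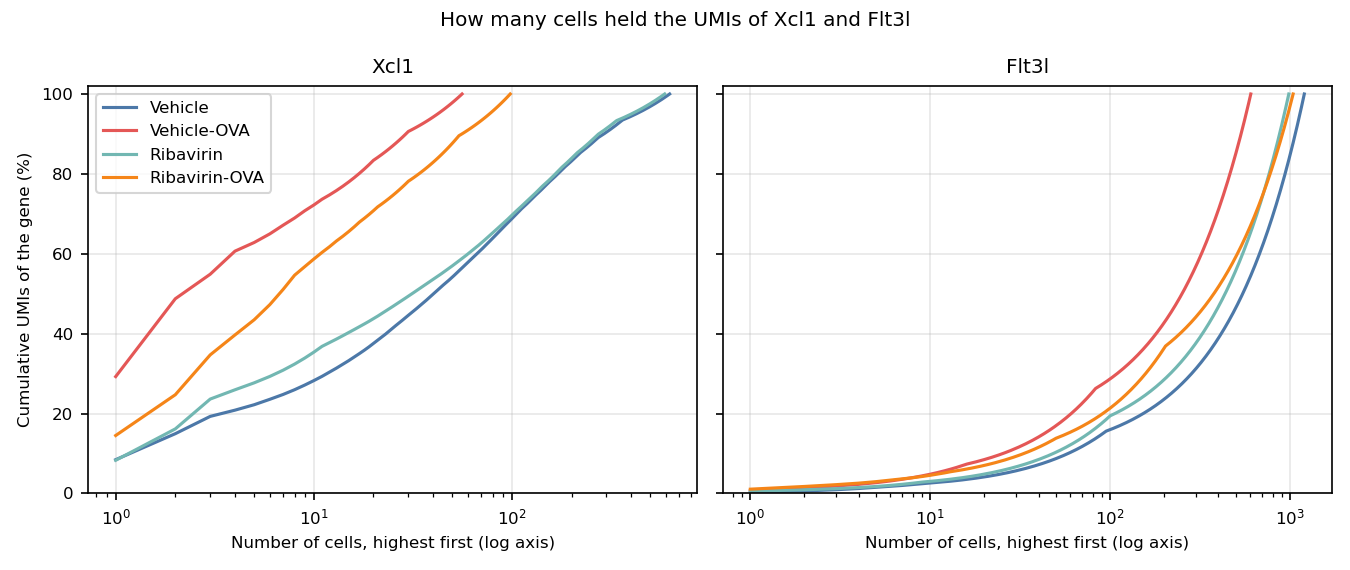
Cumulative share of a library's Xcl1 UMIs (left) and Flt3l UMIs (right) in percent against the number of cells, ordered from the cell with the most UMIs (log axis), 1 line per library. The first cell held 8.44 and 8.28% of the Xcl1 UMIs of Vehicle and Ribavirin, against 29.2% for Vehicle-OVA and 14.5% for Ribavirin-OVA, whereas the Flt3l lines start near 0.

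The next question was how the ligand differed between OVA and no OVA. In NK-like cells the CPM of Xcl1 in Vehicle-OVA over Vehicle was 0.0917 (0.0521 to 0.150), and in Ribavirin-OVA over Ribavirin 0.449 (0.380 to 0.527). One cell held 61 of the 178 UMIs of Ribavirin-OVA, and without the top cell of each library the ratios were 0.0798 and 0.321. T cell genes moved with Xcl1 in this class only in part. Of a list of 8 T cell genes 5 had at least 20 UMIs there. Of these, 5 were past 1.5-fold lower under Vehicle and 3 under Ribavirin, against 13.5% and 10.8% of all genes tested in the class. Their medians were −2.54 and −1.83 on the log2 scale, and Cd3g stood at 45.5, 7.00, 77.4 and 10.6 CPM. The summed level of the 5 T cell markers used for naming was 292, 394, 380 and 345 CPM, which did not follow that order. The part of T cells in the Xcl1 values was not tested. At resolution 0.5 the Xcl1 ratio under Vehicle was 0.169, and with CPM averaged over cells the Xcl1 ratio under Ribavirin was 0.295. The class was made up of different clusters with and without OVA, chiefly L9 (Klra4, Gzma and Klra8 leading; 307 and 370 cells in the libraries without OVA) and L24 (Klra4, Eomes and Gzma leading; 41 and 76 cells in those with OVA). Xcl1 was 534 CPM in L9 of Vehicle, 556 in L9 of Ribavirin, 43.2 in L24 of Vehicle-OVA and 264 in L24 of Ribavirin-OVA. Cluster L14, led by Gzma, Serpinb9b and Gzmb and present in all 4 libraries, stood at 103, 23.8, 86.9 and 20.7 CPM. The order without OVA above with OVA therefore also held inside one cluster, on 2 and 4 UMIs for the OVA values.

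Cluster L13 gave ratios of 0.137 (0.0779 to 0.223) and 0.231 (0.141 to 0.360), each on 17 cells with OVA. Counted together, NK-like cells and L13 gave 0.0733 (0.0501 to 0.104) and 0.342 (0.294 to 0.397). T cell-like cells gave 0.872 (0.715 to 1.06) under Vehicle and 0.596 (0.503 to 0.703) under Ribavirin. Without the top cell of each library they gave 0.763 (0.584 to 0.984) and 0.660 (0.542 to 0.799). The gap with OVA was thus larger in NK-like cells and L13 than in the named T cell-like class, a difference that was not tested. That class leaves out unnamed cluster L7, which held 314 Xcl1 UMIs in Vehicle and 418 in Ribavirin. The top cell of L7 in Ribavirin held 298 of those 418 UMIs. Over all clusters scored as T cells, L13 and L7 among them, the summed level of Cd8 cells was lower with OVA as well. Cells with a Cd8a or Cd8b1 UMI and no Cd4 UMI stood at 140, 21.0, 145 and 57.4 CPM. The part of single cells and of L13 in these values was not tested. T cell-like cells without OVA were mostly of clusters L0, L1, L3 and L5 and, in Ribavirin, L11; with OVA they were mostly of L8, L10, L20 and L21.

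Ribavirin was then set against its vehicle at the same allergen status. In NK-like cells Xcl1 in Ribavirin over Vehicle was 1.14 (1.04 to 1.26), and Ribavirin-OVA over Vehicle-OVA was 5.59 (3.35 to 10.0), with 16 UMIs in the denominator. In T cell-like cells these ratios were 1.60 (1.45 to 1.77) and 1.09 (0.864 to 1.39), and in L13 Ribavirin over Vehicle was 0.622 (0.574 to 0.673). The top cell of L13 held 341 of 1958 UMIs in Vehicle and 61 of 901 in Ribavirin. That ratio was not recomputed without these cells.

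Across all genes with at least 50 UMIs in NK-like cells (7661), the share past 1.5-fold in CPM with 1 CPM added was 32% higher and 13.5% lower for Vehicle-OVA over Vehicle, and 27.5% higher and 10.8% lower for Ribavirin-OVA over Ribavirin. Of the 5 genes 3 passed that minimum (Xcl1, Ccl5 and Flt3l), and 2 were past the fold downward in each pair while Flt3l was past it upward under Ribavirin. The median gene was 0.278 and 0.251 higher on the log2 scale with OVA, and relative to that median Xcl1 stood at −3.69 and −1.40. Longer genes were higher with OVA (Spearman's rho of log2 ratio and transcript length over 7653 genes 0.348 and 0.360, a description across genes that share the libraries), and Xcl1, with a longest transcript of 523 bases, belongs to the shortest 10% of genes, whose medians were −0.518 and −0.451. The part of this in the Xcl1 values was not tested.

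**Figure D3:**
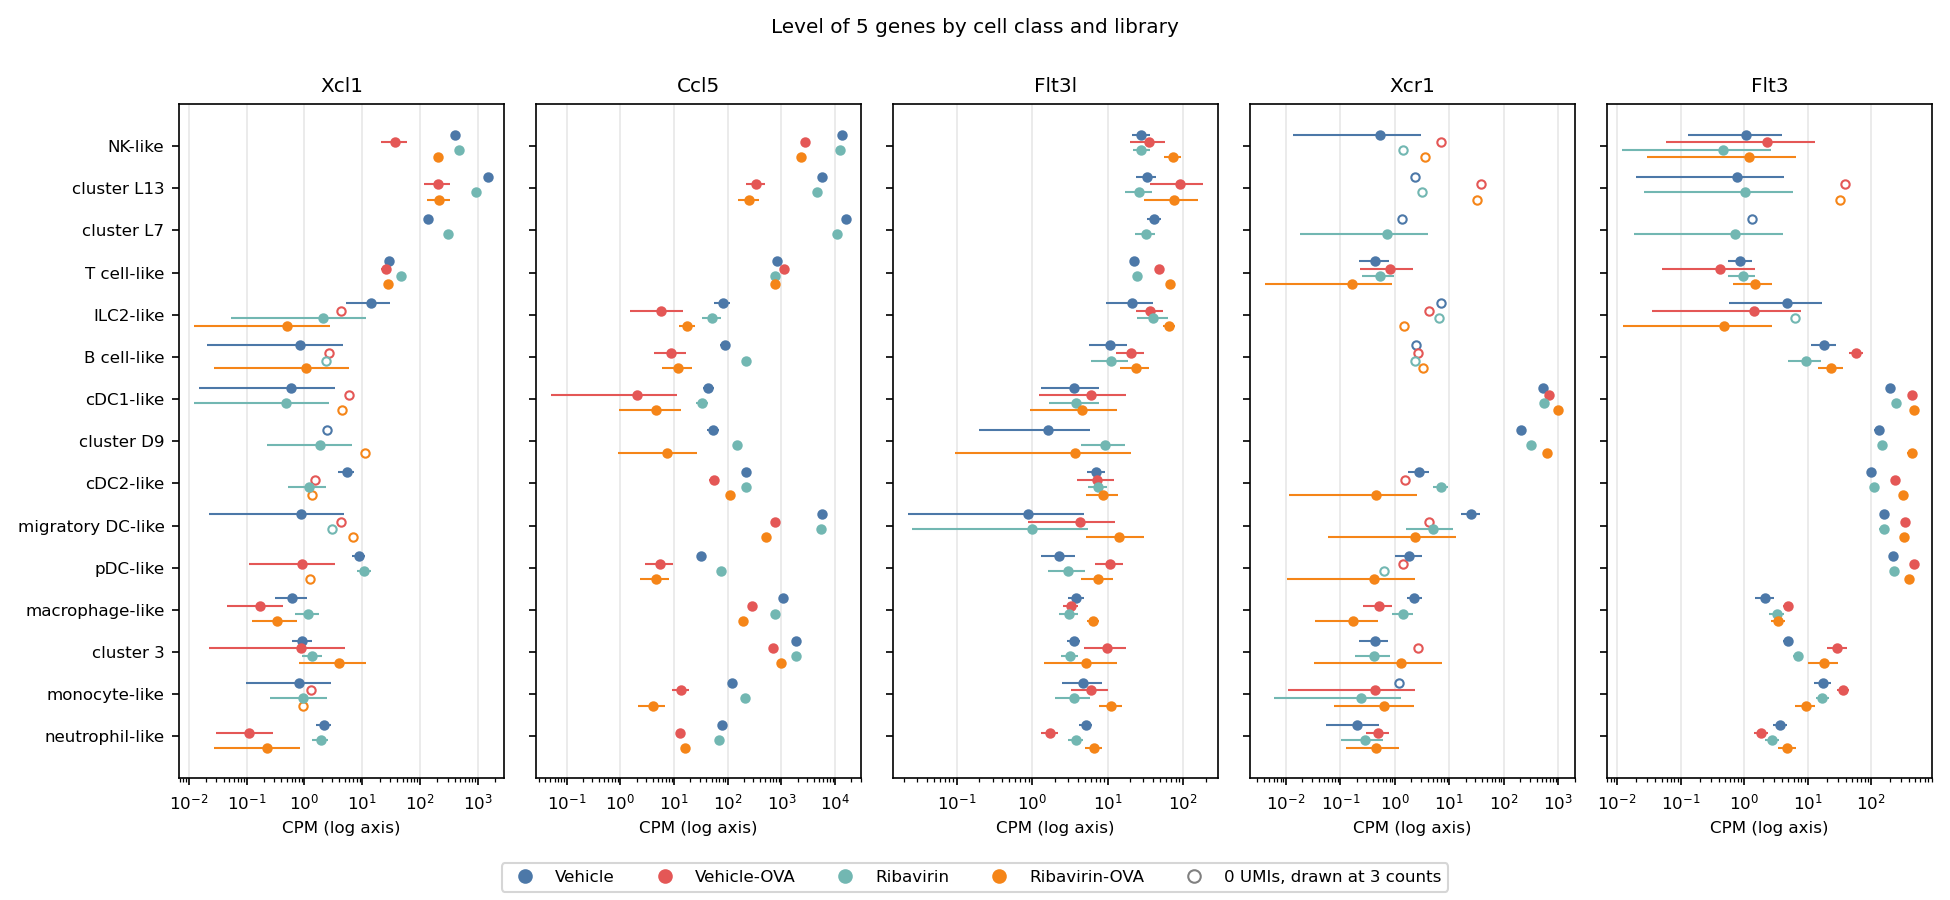
CPM (log axis) of the 5 genes by class or unnamed cluster, 1 point per library, with exact 95% Poisson bars. Open circles are classes with 0 UMIs, drawn at the level of 3 counts, and cluster L7 is drawn for the libraries without OVA only because the others held 3 cells and 1 cell. Xcl1 is highest in cluster L13 and NK-like cells, Xcr1 in cDC1-like cells and D9, and each Flt3 point with OVA lies above the matching point without OVA in the 4 dendritic cell classes.

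Ccl5 came from lymphoid and myeloid classes alike. In NK-like cells it was 13519 CPM in Vehicle, 2792 in Vehicle-OVA, 12427 in Ribavirin and 2284 in Ribavirin-OVA, with a UMI in 98.4, 79.4, 97.5 and 87.1% of cells (95.1, 62.9, 91.2 and 64.5% thinned). Neutrophil-like cells had a Ccl5 UMI in 13.9, 3.26, 13 and 4.48% of cells, at 78.7, 13.1, 70.0 and 15.8 CPM. The ratio with OVA over without in NK-like cells was 0.207 (0.195 to 0.219) under Vehicle and 0.184 (0.175 to 0.192) under Ribavirin. Inside cluster L14, present in all libraries, the order was the same (21974, 9067, 21672 and 6423 CPM). Relative to the median gene of the class, Ccl5 stood at −2.55 and −2.69 on the log2 scale; with 668 bases it too belongs to the shortest 10% of genes.

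T cell-like cells stood at 831, 1136, 747 and 772 CPM of Ccl5, which gave ratios of 1.37 (1.33 to 1.41) under Vehicle and 1.03 (1.00 to 1.07) under Ribavirin. NK-like cells therefore exceeded them 16.3-fold in Vehicle and 16.6-fold in Ribavirin, but 2.46-fold in Vehicle-OVA and 2.96-fold in Ribavirin-OVA. Cluster L25 (Klrc1, Lag3 and Gzmb leading) occurred in the OVA libraries alone, with 39 and 38 cells, and stood at 8801 and 8896 CPM of Ccl5, which was 16.7 and 20.9% of all Ccl5 UMIs there. Its Cd8a level was 990 and 945 CPM with Ncr1 at 0 in both. Cluster L7, led by Nkg7, Ccl5 and Cd8a, was a matching source without OVA, at 15836 CPM in 488 cells of Vehicle and 10746 CPM in 254 cells of Ribavirin. The T cell-like class leaves out L7 and L25, which are unnamed. Over all clusters scored as T cells, named or not, Ccl5 was lower with OVA in both pairs in each subset below. Cells with a Cd8a or Cd8b1 UMI and no Cd4 UMI stood at 7454, 3281, 4055 and 1970 CPM. Cells with a Cd4 UMI alone stood at 635, 415, 625 and 441 CPM, and cells with neither at 1575, 594, 1136 and 279. The summed level of the NK markers in T cell-like cells was 106, 433, 72.1 and 313 CPM, higher in both OVA libraries, and its part in the Ccl5 values there was not tested.

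Among myeloid cells Ccl5 was lower with OVA in both pairs in migratory DC-like, macrophage-like and cDC1-like cells and in unnamed cluster 3, but not in unnamed cluster 30. Migratory DC-like cells, the Ccr7 and Fscn1 expressing stage that travels to lymph nodes, stood at 5745, 754, 5436 and 519 CPM, with ratios of 0.131 (0.120 to 0.143) and 0.0955 (0.0831 to 0.109). Neutrophil markers summed to 2288, 5433, 5889 and 588 CPM in this class, beside 6661 to 10165 CPM for its own markers. Their part in the Ccl5 and Flt3 values of this class was not tested. Macrophage-like cells gave 0.271 and 0.255, on different clusters without OVA (cluster 8, Ccl12 and Ccl7 leading) and with it (cluster 6, Ccl24 and Arg1 leading). Unnamed cluster 3, led by Ly6i and Cxcl9, gave 0.367 and 0.528; it held 29.9% of the Ccl5 UMIs of Vehicle and 28.2% of Ribavirin, against 3.81 and 4.63% in the OVA libraries, where it had 131 and 100 cells in place of 3024 and 1943. Cluster 30, whose cells scored best as macrophages, stood at 190, 412, 953 and 429 CPM and gave 2.16 (1.79 to 2.61) under Vehicle and 0.450 (0.386 to 0.523) under Ribavirin. cDC1-like cells had 73 Ccl5 UMIs in Vehicle and 1 in Vehicle-OVA (ratio 0.0458, 0.00115 to 0.264), and 69 in Ribavirin and 3 in Ribavirin-OVA (0.137, 0.0277 to 0.419). Neutrophil-like cells, the background class, gave 0.167 and 0.225, which is of like size, and the part of free RNA in the values of the other classes was not tested.

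Genes from a list drawn up as receptors for CCL5 were followed as well, and whether each of them binds it was not tested. In macrophage-like cells Ccr1 was at 110, 489, 108 and 309 CPM, 4.44 and 2.86 times as high with OVA. The atypical receptor Ccrl2 stood at 457, 343, 458 and 198 CPM there. In cDC2-like cells Ccr1 (120, 228, 116 and 152 CPM) was likewise higher with OVA, and Ccrl2 lower. In other classes the pairs differed in direction: Ccr1 in monocyte-like cells gave ratios of 1.89 (1.67 to 2.14) under Vehicle and 0.808 (0.724 to 0.901) under Ribavirin, and Ccrl2 in cDC1-like cells gave 1.94 (1.18 to 3.13) and 0.50 (0.291 to 0.816). Ccr1 in cDC1-like cells was at 9.58, 26.0, 11.6 and 6.09 CPM, on 57 UMIs in all. Neutrophil-like cells had Ccr1 at 1037, 1513, 1170 and 1223 CPM. Ackr1 and Ackr2 stayed under 20 UMIs in each class of the comparison, and Ccr3 passed that minimum in neutrophil-like and macrophage-like cells only.

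Xcl1 and Ccl5 were also set beside the other cytokines and chemokines of NK cells, a list of 12 that holds both. In NK-like cells 10 had at least 20 UMIs. Of these, 1 was past 1.5-fold higher and 4 lower in Vehicle-OVA over Vehicle, and 1 higher and 6 lower in Ribavirin-OVA over Ribavirin. Over all genes tested in the class 32% and 27.5% were higher and 13.5% and 10.8% lower. The medians of the list were −0.24 and −0.89 on the log2 scale against 0.278 and 0.251 over all genes tested. Ccl4, an inflammatory CC chemokine, stood at 1270 CPM in Vehicle, 798 in Vehicle-OVA, 1593 in Ribavirin and 854 in Ribavirin-OVA. Ccl3, a related chemokine and CCR1 ligand, stood at 292, 252, 403 and 115 CPM, and Ifng, the interferon of type 1 immunity, at 193, 112, 258 and 243. Ligands thus differed in pattern: Ccl5 and Ccl4 were below 1 in both pairs (0.628 and 0.536 for Ccl4), whereas Ifng was at 0.579 (0.419 to 0.785) under Vehicle and 0.941 (0.798 to 1.11) under Ribavirin. Of 7 mature NK genes 6 had at least 20 UMIs. Of these, 2 were past 1.5-fold higher and 1 lower under Vehicle, and 1 higher and 1 lower under Ribavirin (medians 0.04 and 0.24). These counts stand beside the same shares of 32% and 27.5% higher and 13.5% and 10.8% lower over all genes. Eomes stood at 304, 513, 343 and 651 CPM and S1pr5, a receptor for exit from tissue, at 70.4, 28.0, 54.9 and 35.2. Gzma, the granzyme that leads the class, stood at 9376, 8727, 7201 and 8375 CPM, Ncr1 at 434, 208, 289 and 232 and the pore-forming Prf1 at 322, 224, 266 and 224.

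In T cell-like cells all 12 of the list counted, 4 higher and 2 lower under Vehicle and 5 higher and 3 lower under Ribavirin, with medians of 0.23 and −0.01 against 0.359 and 0.353 over all genes tested there, of which 36.8% and 34.6% were higher and 11.5% and 11.1% lower. Ccl3 stood at 14.3, 199, 18.1 and 44.3 CPM (ratios 14.0 and 2.46) and Ccl4 at 52.3, 358, 74.7 and 177 (6.85 and 2.36). Csf2, which encodes GM-CSF, went the other way, at 9.45, 1.04, 7.35 and 1.46 CPM, as did Ltb, a lymphotoxin of lymphoid tissue, at 857, 468, 787 and 478. NK-like cells and the named T cell-like class therefore showed opposite orders for Ccl4, a difference that was not tested. That class leaves out unnamed clusters L7 and L25. Ccl3 and Ccl4 were not followed over all clusters scored as T cells. T cell-like cells with a Xcl1 UMI had a Ccl5 UMI in 81.2, 76.0, 65.9 and 80.6% of cases, against 33.3, 38.1, 37.3 and 38.6% of those without, and were deeper (a median of 6188 against 4083.5 UMIs in Vehicle).

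**Figure D4:**
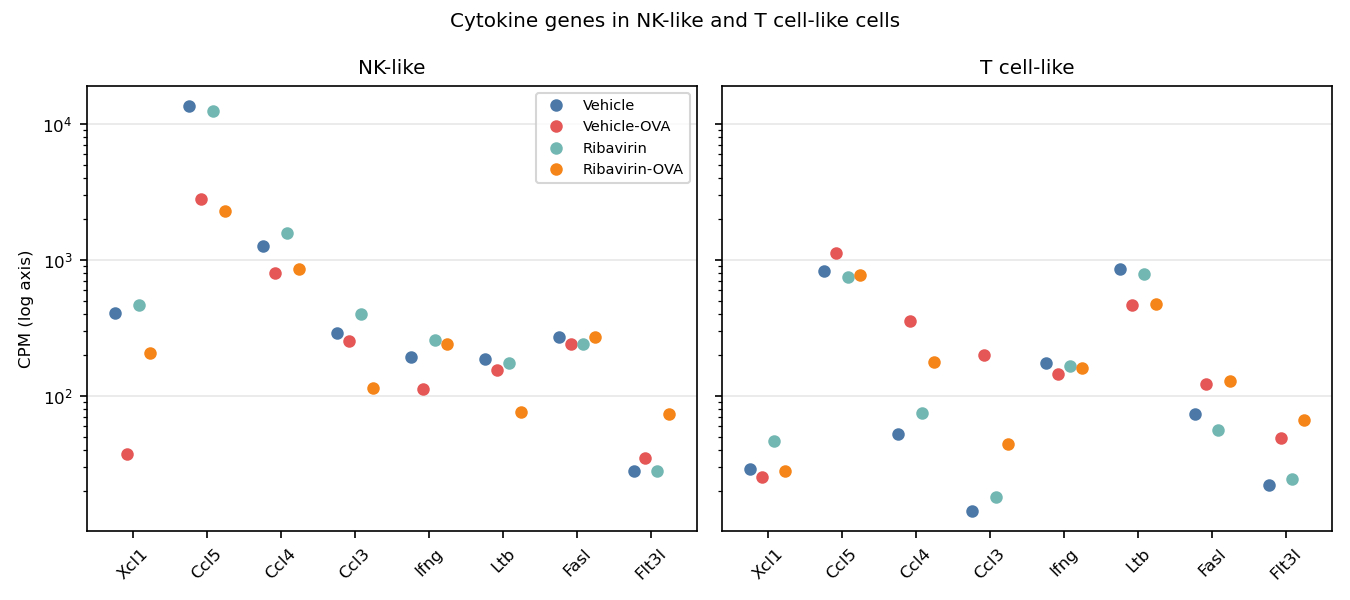
CPM (log axis) of 8 ligands in NK-like cells and T cell-like cells, 1 point per library. In NK-like cells the OVA libraries lie below the others for Xcl1, Ccl5 and Ccl4, while in T cell-like cells they lie above for Ccl3, Ccl4, Fasl and Flt3l.

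Flt3l was higher with OVA in T cell-like cells in both pairs, while over all cells it stood at 0.872 (0.795 to 0.956) of the level without OVA under Vehicle and at 2.21 (2.04 to 2.39) under Ribavirin. In T cell-like cells, its largest holder with 31.0 to 42.6% of UMIs, the level without OVA was 22.2 CPM (20.4 to 24.1) under Vehicle and 24.4 (22.2 to 26.7) under Ribavirin, and with OVA 48.8 (42.7 to 55.4) and 66.8 (60.5 to 73.5). A UMI was found in 10.3, 20.4, 12.9 and 31.4% of cells, or 2.00, 4.82, 2.90 and 7.38% of thinned cells, against 1.40, 0.557, 1.22 and 2.14% of neutrophil-like cells (0.491, 0.143, 0.275 and 0.912% thinned). The ratio with OVA over without was 2.20 (1.88 to 2.56) under Vehicle and 2.74 (2.39 to 3.14) under Ribavirin. In T cell-like cells 36.8% and 34.6% of 11463 genes were past 1.5-fold higher in these pairs and 11.5% and 11.1% lower, and relative to the median gene (0.359 and 0.353 higher with OVA) Flt3l stood at 0.74 and 1.07 on the log2 scale. Its transcript length fell in the next 10%, whose medians were −0.0861 and −0.0878.

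NK-like cells carried Flt3l at a level like that of T cell-like cells: 28.2 CPM in Vehicle, 35.0 in Vehicle-OVA, 28.2 in Ribavirin and 73.9 in Ribavirin-OVA. The ratio of T cell-like over NK-like cells was 0.789 (0.593 to 1.07), 1.39 (0.828 to 2.53), 0.865 (0.660 to 1.15) and 0.903 (0.692 to 1.2), and each interval held 1. With OVA over without, NK-like cells gave 1.24 (0.650 to 2.24) under Vehicle, on 15 UMIs, and 2.63 (1.81 to 3.8) under Ribavirin. ILC2-like cells stood at 21.1, 36.7, 40.5 and 65.8 CPM and B cell-like cells at 0.354 to 0.485 of the T cell-like level. Macrophage-like cells were at 3.07 to 6.47 CPM and cDC2-like cells at 7.10 to 8.70 CPM. NK-like cells thus did not stand out from T cell-like cells in Flt3l.

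Xcr1 was held by few cells. In cDC1-like cells it was 526 CPM (491 to 562) in Vehicle and 544 (512 to 576) in Ribavirin without OVA, and with OVA 663 (594 to 738) and 1004 (928 to 1083). A UMI was found in 74.2, 65.4, 68.3 and 69.8% of cells (4 libraries in the usual order). Thinned to 1000 UMIs the shares were 32.7, 48.9, 32.3 and 51.0%, and neutrophil-like cells had a UMI in 0.0556 to 0.135% of cells. The median depth of cDC1-like cells was 11492 UMIs in Vehicle and 11496 in Ribavirin but 5050.5 and 2850 in the OVA libraries, beside which the unthinned shares have to be read. cDC2-like cells, the neighbouring subset known for presenting antigen to CD4 T cells, had 21 UMIs, 0, 47 and 1. cDC1-like cells exceeded them 190-fold (124 to 309) in Vehicle and 78.1-fold (58.4 to 107) in Ribavirin, and 2192-fold in Ribavirin-OVA on that 1 UMI (392 to 86704), while in Vehicle-OVA, with 0 UMIs in cDC2-like cells, the exact lower limit was 346-fold. These ratios rested on few UMIs in cDC2-like cells and ranged over the settings tried from 55.5 to 258 in Vehicle and from 21.8 to 239 in Ribavirin.

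The OVA ratio of Xcr1 in cDC1-like cells was 1.26 (1.11 to 1.43) under Vehicle and 1.85 (1.67 to 2.03) under Ribavirin. Against the median gene of the class, 0.304 and 0.311 higher with OVA on the log2 scale, Xcr1 stood at 0.03 and 0.57, so under Vehicle it moved as the median gene did; with size factors in place of CPM that ratio was 1.02. In cDC1-like cells 33.6% and 32.8% of 6926 genes were past 1.5-fold higher with OVA and 11.6% and 10.5% lower. Of the 3 members that passed the minimum there (Xcr1, Flt3 and Ccl5), 1 was higher and 1 lower under Vehicle, and 2 higher and 1 lower under Ribavirin. Ribavirin-OVA over Vehicle-OVA was 1.51 (1.32 to 1.73) and Ribavirin over Vehicle 1.03 (0.946 to 1.13). The class rested on cluster D1 (547, 653, 567 and 1021 CPM), present in all 4 libraries, and on the smaller D10 (122, 787, 277 and 757 CPM, the first on 10 UMIs).

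Xcr1 was also found in cluster D9, led by Xcr1, Birc5 and 2810417H13Rik. D9 scored best as cDC1, with all 9 cDC1 markers detected. It was left unnamed because its leading genes held Ccl17, a cDC2 marker, and none of the cDC1 markers used for naming. Mki67, a marker of dividing cells, was at 553, 315, 558 and 937 CPM there, the cDC1 lectin Clec9a at 103, 182, 139 and 323 and the cDC2 lectin Cd209a at 92.1, 33.1, 155 and 14.9. D9 held 70, 8, 63 and 14 cells with Xcr1 at 210, 820, 315 and 632 CPM. Counted with it, cDC1-like cells held 89.4, 91.1, 90.6 and 97.2% of all Xcr1 UMIs and gave OVA ratios of 1.77 (1.58 to 1.98) and 1.92 (1.76 to 2.10). The ratio under Vehicle was thus 1.26 without these cells and 1.77 with them.

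Other genes of cDC1 were read from a list of 15, all with at least 20 UMIs in cDC1-like cells. With OVA 7 were past 1.5-fold higher and 0 lower under Vehicle, and 9 higher and 1 lower under Ribavirin, with medians of 0.50 and 0.72 on the log2 scale. Over all genes of the class 33.6% and 32.8% were higher and 11.6% and 10.5% lower, with medians of 0.304 and 0.311. Irf8, the transcription factor that cDC1 require, stood at 1672, 2366, 1377 and 2408 CPM, and Naaa, a lipid amidase marking the subset, at 1151, 1949, 1184 and 2216. Wdfy4, needed for cross-presentation of cell-bound antigen, stood at 594, 973, 663 and 1202 CPM and Tlr3, the sensor of double-stranded RNA, at 132, 198, 139 and 364. Clec9a, the receptor for dead-cell actin (318, 272, 288 and 330.5 CPM), and Batf3, a factor for cDC1 development (226, 234, 227 and 184 CPM), did not share that order. In cDC2-like cells the same list gave 2 higher and 5 lower under Vehicle and 1 higher and 6 lower under Ribavirin, against 37.6% and 36.8% of all genes higher and 8.85% and 7.65% lower there.

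Outside these clusters Xcr1 was low, and a few cells held much of it. NK-like cells had 1 UMI in Vehicle and 0 in the other libraries, and B cell-like and ILC2-like cells had 0 in all 4. Migratory DC-like cells stood at 24.8 CPM in Vehicle, where 1 cell held 26 of 28 UMIs, and at 0, 4.96 and 2.35 CPM in the others. cDC2-like cells stood at 2.76, 0, 6.96 and 0.458 CPM, and 37 of their 47 UMIs in Ribavirin were in cluster D13 (55.7 CPM in 59 cells). Unnamed cluster L17, led by Tnfrsf4, Tff1 and Tnfrsf9, stood at 0, 8.76, 24.8 and 21.5 CPM, on 16 UMIs in 4 cells at most. Macrophage-like cells were at 2.29, 0.505, 1.41 and 0.169 CPM and neutrophil-like cells at 0.203, 0.496, 0.280 and 0.457.

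Flt3 was spread over all dendritic cell classes, and each was higher with OVA. cDC2-like cells stood at 99.5 CPM in Vehicle, 238 in Vehicle-OVA, 113 in Ribavirin and 324 in Ribavirin-OVA. cDC1-like cells stood at 196, 435, 251 and 475 CPM in the same order. Plasmacytoid DC-like (pDC-like) cells, the interferon-making subset, stood at 219, 482, 230 and 394 CPM. In each of the 3 classes both OVA libraries lay above both libraries without OVA, and migratory DC-like cells (161, 342, 158 and 334 CPM) did the same. In order of level in Vehicle the classes were pDC-like (208 to 230), cDC1-like (175 to 218), migratory DC-like (138 to 186) and cDC2-like (92.5 to 107), so that only the last stood clear of its neighbour's interval. In Ribavirin-OVA cDC1-like cells came first, and migratory DC-like over cDC2-like was 1.03 (0.854 to 1.23), not apart beyond counting error.

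The OVA ratios of Flt3 were 2.39 (2.13 to 2.69) under Vehicle and 2.87 (2.58 to 3.18) under Ribavirin in cDC2-like cells. They were 2.22 (1.86 to 2.64) and 1.90 (1.64 to 2.19) in cDC1-like cells, 2.20 (2.03 to 2.38) and 1.71 (1.57 to 1.87) in pDC-like cells and 2.13 (1.75 to 2.60) and 2.11 (1.67 to 2.67) in migratory DC-like cells. In cDC2-like cells 37.6% and 36.8% of 9769 genes were past 1.5-fold higher and 8.85% and 7.65% lower. In pDC-like cells 31.4% and 27.4% of 9613 were higher and 7.89% and 9.6% lower, and in migratory DC-like cells 29.6% and 31.3% of 6146 were higher and 13.1% and 14.3% lower. Relative to each class's median gene, which was 0.232 to 0.396 higher with OVA, Flt3 stood between 0.50 and 1.12 on the log2 scale. Flt3, with a longest transcript of 3951 bases, lies in a 10% length group whose median was 0.568 and 0.531 in cDC2-like cells, against 1.25 and 1.51 for Flt3 itself. cDC2-like cells were chiefly of clusters D0, D3, D5, D7 and D8 and, in Ribavirin, D13 without OVA and of D4 with it. The cDC1-like and pDC-like classes rested on the same clusters in all libraries, but the cDC1-like mix differed. D10 made up 29 of 151 cDC1-like cells in Vehicle, 22 of 52 in Vehicle-OVA, 58 of 189 in Ribavirin and 31 of 63 in Ribavirin-OVA. Markers of other dendritic cells moved with Flt3. In cDC2-like cells the summed level of the 8 migratory DC markers was 150, 489, 200 and 614 CPM with no marker at 0. In cDC1-like cells the 7 cDC2 markers summed to 445, 1108, 700 and 924 CPM, with 1 marker at 0 in each OVA library. Their part in the Flt3 values was not tested.

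Thinned to 1000 UMIs, a Flt3 UMI was found in 8.85, 19.0, 11.1 and 24.0% of cDC2-like cells and in 20.1, 35.9, 21.0 and 35.2% of pDC-like cells. Unthinned, the shares were 51.8, 66.0, 56.9 and 83.8% and 74.5, 93.9, 82.8 and 91.2%, against 0.876, 0.566, 0.854 and 1.49% of neutrophil-like cells. Ribavirin over Vehicle in cDC1-like cells was 1.28 (1.11 to 1.48), and Ribavirin-OVA over Vehicle-OVA in cDC2-like cells was 1.36 (1.21 to 1.53). Away from dendritic cells Flt3 was at 18.2, 58.2, 9.45 and 23.6 CPM in B cell-like cells, while NK-like cells had 2, 1, 1 and 1 UMIs. Within cDC1-like cells, those with a Xcr1 UMI had a Flt3 UMI in 81.3, 79.4, 87.6 and 86.4% of cases against 43.6, 44.4, 45 and 26.3% of those without, but the first were deeper (a median of 12124 against 4174 UMIs in Vehicle and of 15568.5 against 1116 in Ribavirin-OVA).

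Flt3 belongs to the class III receptor tyrosine kinases, and 17 genes of that family, their ligands and signal partners were listed, Flt3 and Flt3l included. In cDC2-like cells 13 had at least 20 UMIs, with 9 past 1.5-fold higher and 0 lower under Vehicle and 8 higher and 0 lower under Ribavirin; the medians were 1.05 and 0.65 on the log2 scale against 0.392 and 0.396 over all genes tested, of which 37.6% and 36.8% were higher and 8.85% and 7.65% lower. In cDC1-like cells the counts were 9 higher and 1 lower, and 6 higher and 0 lower, of 13, with medians of 0.81 and 0.58; 33.6% and 32.8% of all genes of that class were higher and 11.6% and 10.5% lower. In pDC-like cells they were 11 higher and 0 lower, and 8 higher and 1 lower, of 14, with medians of 0.92 and 0.65, against 31.4% and 27.4% of all genes higher and 7.89% and 9.6% lower. Cbl, the ubiquitin ligase that turns the receptors over, stood at 150, 328, 162 and 392 CPM in cDC2-like cells, and Stat3, which FLT3 signals through, at 148, 308, 171 and 299. Stat5a, another signal partner, stood at 26.5, 98.1, 36.7 and 92.0 CPM (ratios 3.70 and 2.51). Kit, the sister receptor, was at 114, 111, 92.4 and 90.2 CPM in cDC2-like cells and at 12.1, 11.1, 18.3 and 2.07 CPM in pDC-like cells. Kit in cDC2-like cells differed by less than its counting error (ratios 0.971, 0.833 to 1.13, and 0.977, 0.828 to 1.15).

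**Figure D5:**
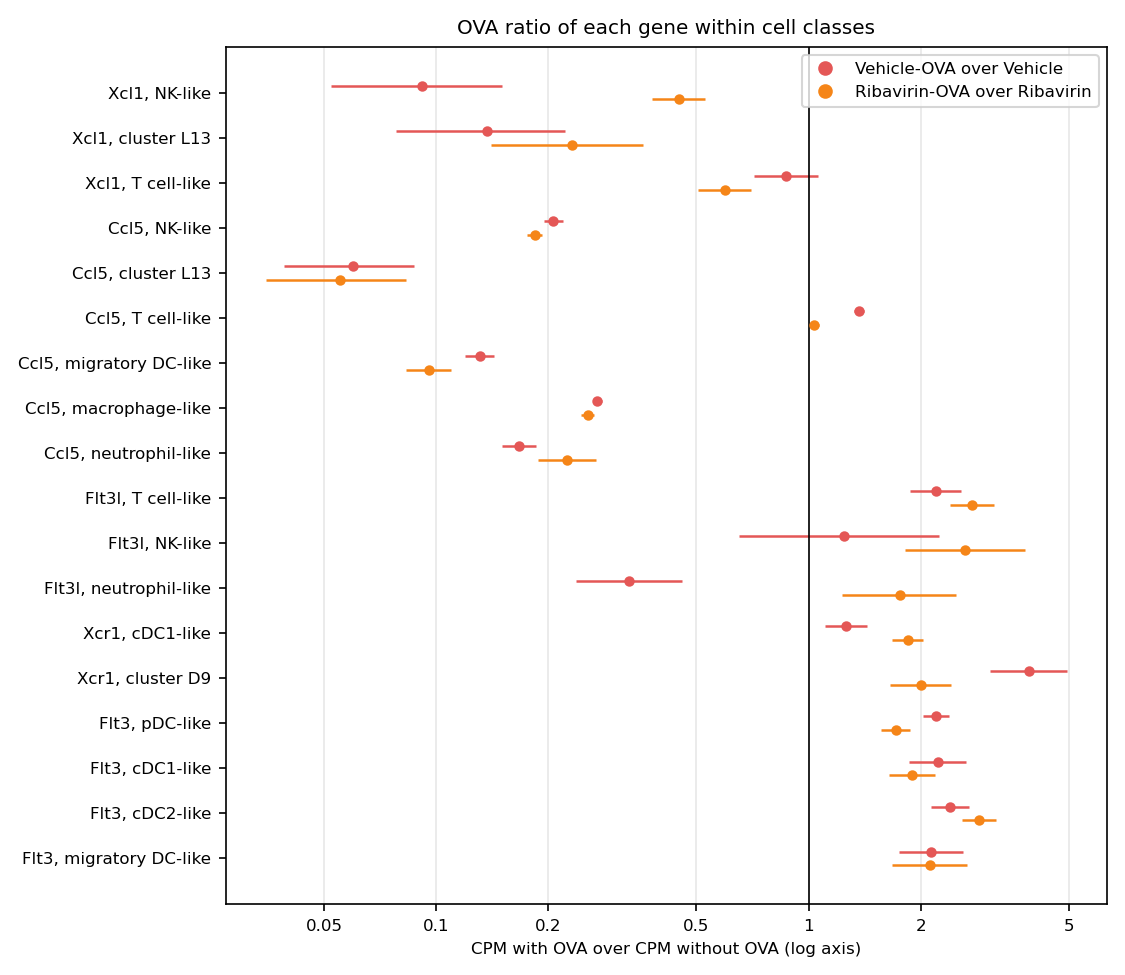
Ratio of CPM with OVA over without (log axis, line at 1) for each gene and class, under Vehicle and under Ribavirin, with exact 95% conditional binomial intervals. Xcl1 and Ccl5 in NK-like cells lie left of 1 in both pairs, and Flt3 in the 4 dendritic cell classes and Flt3l in T cell-like cells lie right of 1.

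To see which genes were distributed most like each of the 5, the log level of every gene with at least 200 UMIs was correlated with theirs over 56 class-and-library profiles. The profiles came from 16 named classes, where a class had at least 50 cells in the library. Unnamed clusters, L13, L7, D9 and cluster 3 among them, were left out. The correlations are descriptions, since profiles of a library share its depth. Xcl1 was most like Ifng (Pearson's r 0.901), Klrb1c (0.893), Gm20069 (0.887), Cd160 (0.884) and Klrb1f (0.879). Xcr1 was most like A530099J19Rik (0.98), Gcsam (0.944), Gpr33 (0.937), Tlr11 (0.923) and 2310031A07Rik (0.88). Flt3 was most like Kynu (0.906) and Kmo (0.894), enzymes of the kynurenine path from tryptophan, followed by Uvrag (0.891), Syngr2 (0.889) and Rnase6 (0.85). For Flt3l the nearest were Cnot6l (0.879) and Gimap8 (0.878), and for Ccl5 the nearest were AW112010 (0.793) and Il12rb2 (0.725), the lowest best value of the 5 genes.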

How the data were processed

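The submitters' processing notes name Cell Ranger 5.0.0 and the build mm10; the authors deposited UMI counts per gene and cell for each of 4 libraries (1 per group, 10x 3′ chemistry), not normalized. The labels name CD45 beads and the series text a flow sort. Cells were kept above 200 genes and 500 UMIs (both inclusive) if less than 10% of their UMIs were mitochondrial, and cells with a Scrublet score above 0.25 (as run in scanpy) were removed (6.47, 3.03, 4.14 and 0.760% of passing cells in the order Vehicle, Vehicle-OVA, Ribavirin, Ribavirin-OVA). Clusters came from scanpy 1.11.5 and leidenalg 0.10.2 (2000 variable genes without the 5 genes, 30 components, 15 neighbours, resolution 1; lymphocytes and dendritic cells clustered again), and a class was named from at least 3 detected markers. A cluster also stayed unnamed where its leading genes held more markers of another class than of its own. Deposited counts were summed per class and library. Intervals are exact 95% Poisson, Clopper-Pearson or conditional binomial intervals (scipy 1.17.1). They were checked only on simulated independent Poisson counts, the model they assume. That check cannot speak for genes whose UMIs are clumped in single cells, such as Xcl1. UMI counts limit the precision, and free RNA is not covered. Called means past 1.5-fold with 1 CPM added. Of a list, the genes named were the 4 with the most UMIs in the class and those past 2-fold in both OVA pairs; others were chosen after their values were seen. The members and lists were chosen with earlier results of these data known. Alternatives tried are given at the end. No per-sample column was left unmapped (0). One receptor gene is not reported here.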

Additional observations from a re-analysis of the deposited data

Results flagged for a closer look

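Results were flagged where the ratio with OVA over without lay on opposite sides of 1 under Vehicle and under Ribavirin, beyond counting error in both, in a class with at least 50 cells in each library; in no case was the difference between the ratios tested, and each side is 1 library. Flt3 in monocyte-like cells was 2.12 (1.45 to 3.14) under Vehicle and 0.545 (0.343 to 0.844) under Ribavirin, from 17.2, 36.5, 17.1 and 9.29 CPM in the order Vehicle, Vehicle-OVA, Ribavirin, Ribavirin-OVA. Flt3 in neutrophil-like cells was 0.499 (0.352 to 0.704) and 1.72 (1.13 to 2.59), from 3.70, 1.85, 2.80 and 4.80 CPM. Flt3l in neutrophil-like cells was 0.330 (0.237 to 0.457) and 1.75 (1.23 to 2.49), from 5.17, 1.71, 3.77 and 6.62 CPM. The median gene of neutrophil-like cells stood at −0.62 on the log2 scale in Vehicle-OVA over Vehicle and at 0.26 in Ribavirin-OVA over Ribavirin, the same signs as both genes there. Neutrophil-like cells of Vehicle-OVA were mostly of clusters 4, 9, 12 and 5, and those of the other libraries mostly of clusters 1, 2, 5 and 16. Flt3l over all cells was 0.872 (0.795 to 0.956) and 2.21 (2.04 to 2.39), with neutrophil-like cells at 65.6% of Vehicle-OVA and 29.8% of Ribavirin-OVA.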

How the results depend on the processing

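No paired analysis was possible because each group has 1 library. Of 247 ratios recomputed under the alternatives, 172 stayed inside the counting interval of the reported ratio, 75 moved outside it and 0 changed direction; of 24 shares of genes past 1.5-fold, 20 moved by less than 1.5 times. The range over alternatives was 0.0699 to 0.169 for Xcl1 in NK-like cells, Vehicle-OVA over Vehicle, and 0.295 to 0.463 for Ribavirin-OVA over Ribavirin. It was 0.170 to 0.280 and 0.154 to 0.229 for Ccl5 in NK-like cells, 1.66 to 2.29 and 2.10 to 2.81 for Flt3l in T cell-like cells, 1.02 to 1.77 and 1.49 to 1.92 for Xcr1 in cDC1-like cells and 1.80 to 2.98 and 2.15 to 3.31 for Flt3 in cDC2-like cells. The cause of the moves below was not tested.

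Each group of values below names the OVA pair by its treatment, Vehicle or Ribavirin, and a ratio between classes by its library. With a mitochondrial limit of 5%, Ccl5 in NK-like cells was 0.259 (Vehicle) and 0.218 (Ribavirin), Xcr1 in cDC1-like cells 1.57 (Vehicle), Xcl1 in NK-like over T cell-like cells 9.27 in Ribavirin-OVA, and Xcr1 in cDC1-like over cDC2-like cells 56.2 in Vehicle and 140 in Ribavirin. With a limit of 20%, Xcl1 in NK-like cells was 0.318 (Ribavirin), its ratio over T cell-like cells 40.1 in Vehicle, 8.95 in Ribavirin and 62.5 in Ribavirin-OVA, and Xcr1 in cDC1-like over cDC2-like cells 239 in Ribavirin. With at least 1000 UMIs and 500 genes, Xcl1 in NK-like over T cell-like cells was 10.3 in Ribavirin-OVA and Xcr1 in cDC1-like over cDC2-like cells 176 in Ribavirin. With doublets kept, Flt3 in cDC2-like cells was 3.31 (Ribavirin), Xcl1 in NK-like over T cell-like cells 12.2 in Ribavirin-OVA, and Xcr1 in cDC1-like over cDC2-like cells 93.8 in Vehicle and 209 in Ribavirin.

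At resolution 0.5, Xcl1 in NK-like cells was 0.169 (Vehicle), Ccl5 there 0.181 (Vehicle) and 0.167 (Ribavirin), Xcr1 in cDC1-like cells 1.71 (Vehicle), and Xcl1 in NK-like over T cell-like cells 2.78 in Vehicle-OVA. At resolution 2, Xcl1 in NK-like cells was 0.371 (Ribavirin), Ccl5 there 0.213 (Ribavirin), Xcr1 in cDC1-like cells 1.5 (Vehicle) and 1.59 (Ribavirin), Xcl1 in NK-like over T cell-like cells 18.1 in Vehicle and Xcr1 in cDC1-like over cDC2-like cells 202 in Ribavirin. With the 5 genes allowed among the variable genes, Xcl1 in NK-like over T cell-like cells was 15.5 in Vehicle. With classes from single-cell marker UMIs, Xcl1 in NK-like cells was 0.323 (Ribavirin), Ccl5 there 0.267 (Vehicle) and 0.229 (Ribavirin), Flt3l in T cell-like cells 1.86 (Vehicle) and 2.27 (Ribavirin), Xcr1 in cDC1-like cells 1.05 (Vehicle) and 1.53 (Ribavirin) and Flt3 in cDC2-like cells 2.98 (Vehicle). In those classes Xcl1 in NK-like over T cell-like cells was 11.5 in Vehicle and 5.78 in Ribavirin-OVA, and Xcr1 in cDC1-like over cDC2-like cells 55.5, 50.3, 21.8 and 259 in the order Vehicle, Vehicle-OVA, Ribavirin, Ribavirin-OVA.

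As a mean of single-cell CPM, Xcl1 in NK-like cells was 0.295 (Ribavirin), Ccl5 there 0.280 (Vehicle) and 0.223 (Ribavirin), Xcr1 in cDC1-like cells 1.61 (Vehicle), and Xcl1 in NK-like over T cell-like cells 23.0 in Vehicle, 12.1 in Ribavirin and 5.13 in Ribavirin-OVA. With median-of-ratios size factors, Xcl1 in NK-like cells was 0.375 (Ribavirin), Ccl5 there 0.170 (Vehicle) and 0.154 (Ribavirin), Flt3l in T cell-like cells 1.66 (Vehicle) and 2.10 (Ribavirin), Xcr1 in cDC1-like cells 1.02 (Vehicle) and 1.49 (Ribavirin) and Flt3 in cDC2-like cells 1.80 (Vehicle) and 2.15 (Ribavirin). With 10 CPM added, the share of genes past 1.5-fold was 27.3% (Vehicle) and 25.4% (Ribavirin) in T cell-like cells and 27.1% and 24.9% in cDC2-like cells.

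The remaining alternatives were chosen after seeing the data. With unnamed clusters in their best-scoring class, Xcr1 in cDC1-like cells was 1.77 (Vehicle) and Xcl1 in NK-like over T cell-like cells 4.28 in Vehicle, 4.46 in Ribavirin and 9.83 in Ribavirin-OVA; with cluster D9 alone counted as cDC1-like, Xcr1 was again 1.77 (Vehicle). With cluster L13 counted as NK-like, Xcl1 was 0.342 (Ribavirin), Ccl5 0.235 (Vehicle) and 0.209 (Ribavirin), and Xcl1 in NK-like over T cell-like cells 29.4 in Vehicle, 2.48 in Vehicle-OVA and 13.1 in Ribavirin. Without the cell with the most UMIs of the gene in each class and library, Xcl1 in NK-like cells was 0.321 (Ribavirin), Ccl5 there 0.189 (Vehicle), Xcl1 in NK-like over T cell-like cells 20.4 in Vehicle and 13.6 in Ribavirin, and Xcr1 in cDC1-like over cDC2-like cells 116 in Ribavirin. All 20 shares of cells with a UMI differed between thinned and unthinned cells. The NK-like values of Vehicle-OVA rest on 63 cells, with 16 Xcl1 and 15 Flt3l UMIs.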
